A study of Mus musculus with 8 samples.

Results

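Potassium channels let potassium leave or enter the cell and so set the membrane potential, which in pericytes and smooth muscle governs voltage-dependent calcium entry and tone. The family is read here in cultured mouse brain pericytes, the mural cells of capillaries, after 48 h with TGF-β1 or vehicle. Members were the protein-coding genes of GENCODE M21 whose symbol is Kcn followed by further letters and a number, with *Kcnj8* left out, and 92 of the 54532 gene identifiers met this rule. They were sorted by symbol into 40 voltage-gated pore genes, 12 auxiliary genes of the voltage-gated channels, 12 genes of the calcium-activated group, 14 inward rectifiers and 14 two-pore channels. The calcium-activated group includes *Kcnt1*, *Kcnt2* and *Kcnu1*, which are relatives of the large-conductance calcium-activated channel in sequence but respond to sodium or pH.

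RNA was sequenced from 8 primary cultures of wild-type mouse brain, 4 treated with TGF-β1 at 5 μg/mL (replicates 5 to 8) and 4 with vehicle (replicates 1 to 4). According to the study's methods, cells were grown from dissociated brain through several passages in serum-containing medium before use, so the cultures are passaged cells and not freshly sorted pericytes. The methods speak of 4 isolates given both treatments, whereas the series' design text speaks of 8 cultures and the labels share no replicate number between the arms, so the groups were compared without pairing. The p-values therefore measure the spread between these 8 libraries only.

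The deposited totals lay between 45255235 and 47651397 counts per culture, at which 3 counts equal 0.0631 to 0.0658 CPM. CPM expresses the count of a gene relative to the depth of its library after TMM scaling. Marker genes are counted as higher or lower by the edgeR test used for the channels (adjusted p under 0.05). For the 11 pericyte markers (3 higher, 3 lower) the summed level was between 419.7 and 439.9 CPM with vehicle and between 578 and 601 CPM with TGF-β1. Of these, *Pdgfrb*, *Cspg4* and *Notch3* were abundant (202, 82.9 and 88.5 CPM with vehicle). With TGF-β1 *Pdgfrb* (291 CPM) and *Cspg4* (169 CPM) were higher, as was *Mcam* (5.25 to 10.1 CPM), and *Notch3* was not called. *Rgs5* was lower with TGF-β1 (8.62 ± 0.466 against 2.13 ± 0.245 CPM, SD, n = 4 each), as were *Anpep* (40.5 to 30.1 CPM) and *Atp13a5* (0.723 to 0.299 CPM). *Vtn*, *Higd1b* and *Abcc9* stayed at or below 25 counts in every culture. The summed level of 4 fibroblast markers went from 1652 to 1734 CPM with vehicle to 2567 to 2694 CPM with TGF-β1 (1 higher, 1 lower). Its rise was that of *Col1a1* (1588 to 2525 CPM), whereas *Dcn* was lower (52.1 to 46.7 CPM) and *Pdgfra* was not called. The sum of 5 astrocyte markers went from 50.1 to 57.2 CPM to 39.2 to 44.2 CPM (2 higher, 1 lower, with *Aqp4* at 0 to 6 counts). There *Slc1a2* was lower (38.5 to 16.3 CPM), whereas *Slc1a3* (9.74 to 15.2 CPM) and *Aldh1l1* (5.16 to 8.79 CPM) were higher. For 5 neuron markers the sum went from 4.34 to 5.50 CPM to 9.08 to 11.8 CPM, where *Tubb3* was the 1 member called. Among 8 endothelial markers (1 higher, 1 lower) the sums overlapped, with *Cdh5* at 375 CPM and *Pecam1* at 1.11 CPM with vehicle. The sums of the smooth muscle (1 of 5 higher) and the microglia and macrophage markers (1 of 8 higher) overlapped as well. So did those of 5 oligodendrocyte markers, at 4.12 to 5.48 CPM with vehicle and 5.34 to 6.04 CPM with TGF-β1 (1 higher, 1 lower). The part of these lists in the channel results was not tested, and in bulk RNA fewer cells of a type and less RNA per cell cannot be told apart.

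A potassium channel pore is lined by the selectivity filter, a short stretch whose conserved core is a glycine, an aromatic residue or leucine, and a second glycine, and through which dehydrated potassium ions pass in single file. Most pore subunits contribute 1 such stretch and assemble as tetramers, two-pore subunits contribute 2 and assemble as dimers, and auxiliary subunits contribute none. The longest coding sequence of each member in GENCODE M21 was searched in frame for 5 codons, namely threonine or serine, any residue, glycine (GGN), tyrosine, phenylalanine or leucine, and glycine (GGN). All 14 two-pore genes held 2 matches, 60 of the 62 other pore genes held 1, and *Kcna6* and *Kcnh2* held 2. The first match of *Kcna6* (codon 240) and of *Kcnh2* (codon 601) has leucine between the glycines. Their second matches have tyrosine (*Kcna6*, codon 422) and phenylalanine (*Kcnh2*, codon 626). A match to this pattern alone does not make a filter. None of the 16 auxiliary genes (the 12 of the voltage-gated channels and *Kcnmb1* to *Kcnmb4*) held any. The sequences shown are those of *Kcnj2* and *Kcnj14*, the inward rectifiers with the largest rises, and of *Kcnk12*, the member with the largest change, each as 30 bases with the 5 filter codons in capitals.
Kcnj2: cagacaACCATTGGCTATGGTttcaggtgt
Kcnj14: cagacgTCCATAGGCTATGGTgtgcgcagc
Kcnk12, match 1: gtgtcgACCATAGGTTTCGGCatgacaaca
Kcnk12, match 2: ttcagcACCATCGGCTTCGGGgacctggtg
On GRCm38 these windows lie within coding exons at chr11:111072201-111072230 (*Kcnj2*, plus strand, exon 2) and chr7:45819624-45819653 (*Kcnj14*, minus strand, exon 2). The second window of *Kcnk12* lies in exon 2 (chr17:87746444-87746473, minus strand), and its first spans the junction of exons 1 and 2 (chr17:87746825-87797076).

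The channel genes were expressed at low levels. Of the 92 members, 51 had at least 10 counts in every culture and 21 had at least 100, *Kcna5* had 0 in every culture, and *Kcnj11* never exceeded 2. Per kilobase of exon (RPKM, the CPM divided by the union exon length), 74 members were below 1 in both group means. The highest mean level was that of *Kcnab1*, a cytoplasmic β subunit of Kv1 channels, at 4.39 RPKM with vehicle and 4.66 RPKM with TGF-β1. Among the voltage-gated pore genes *Kcnh4* (2.08 RPKM over all cultures), *Kcnd1* (1.44) and *Kcnc2* (1.28) led. Next to *Kcnab1* among the auxiliary genes were *Kcnip3* (2.61 RPKM) and *Kcnab2* (2.39). The sodium-activated channel *Kcnt2* (3.71 RPKM), the intermediate-conductance channel *Kcnn4* (3.50) and the large-conductance channel's β4 subunit *Kcnmb4* (2.49) led the calcium-activated group. *Kcnj4* (4.29 RPKM), *Kcnj2* (3.06) and *Kcnj14* (1.83), all subunits of Kir2 channels, led the inward rectifiers, and *Kcnk2* (1.74), *Kcnk7* (1.33) and *Kcnk12* (1.07) the two-pore genes. Both *Kcnj2* and *Kcnn4* exceeded *Kcnt2* with TGF-β1 (4.28, 4.43 and 3.27 RPKM) but were below it with vehicle (1.84, 2.57 and 4.15 RPKM).

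**Figure D1:**
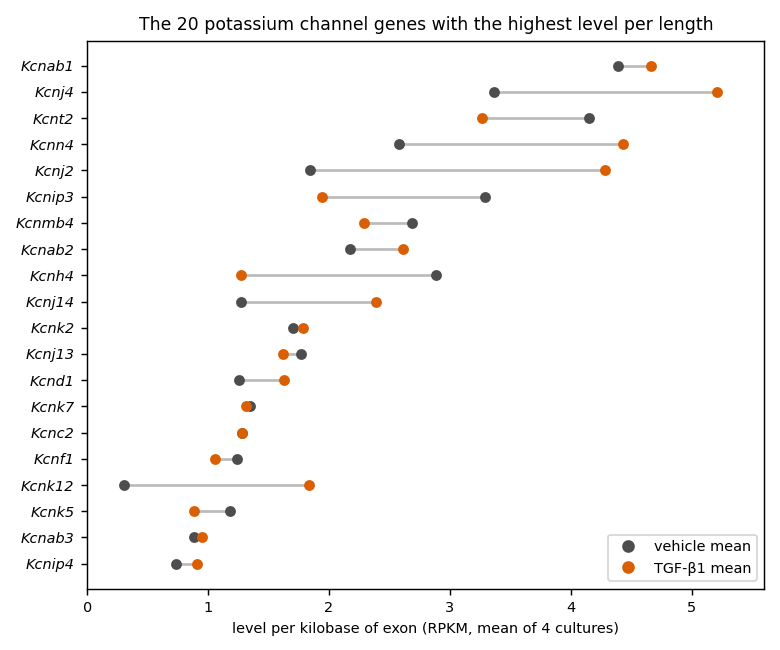
Mean level per kilobase of exon (RPKM, horizontal axis) of the 20 members with the highest mean over all 8 cultures, with vehicle in grey and TGF-β1 in orange. *Kcnab1* lies at 4.39 and 4.66 RPKM, and *Kcnk12* moves from 0.304 to 1.83 RPKM.

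Which channel genes differed after TGF-β1 was asked with the quasi-likelihood test of edgeR on every gene that passed its filter on low counts, with Benjamini-Hochberg adjustment and a threshold of 0.05. The filter retained 55 members, and the other 37 had at most 24 counts in any culture and were not tested. Of the 55, 24 were called, 15 higher and 9 lower with TGF-β1, or 43.6%, against 41.3% of all 22544 genes tested, so the share of channel genes called was near the background. For rises the background was 20.9% and for falls 20.3%. In 22 of the 55 the cultures of the 2 groups did not overlap, against 37.9% of all genes tested. The median log2 fold change was -0.04 over the 55 members and -0.01 over all genes tested. An absolute log2 fold change of at least 1 was reached by 5 called members (9.09% of those tested), against 5.41% of all genes tested. DESeq2 gave an adjusted p to 70 members and called 22 of these, 21 of them in common with edgeR. Of all 26385 genes to which it gave an adjusted p, it called 32.8%. Called members had a median absolute log2 fold change of 0.77 at a median level of 3.86 CPM, against 0.32 at 27.9 CPM over all called genes. The part of the lower level in the larger changes was not tested.

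**Figure D2:**
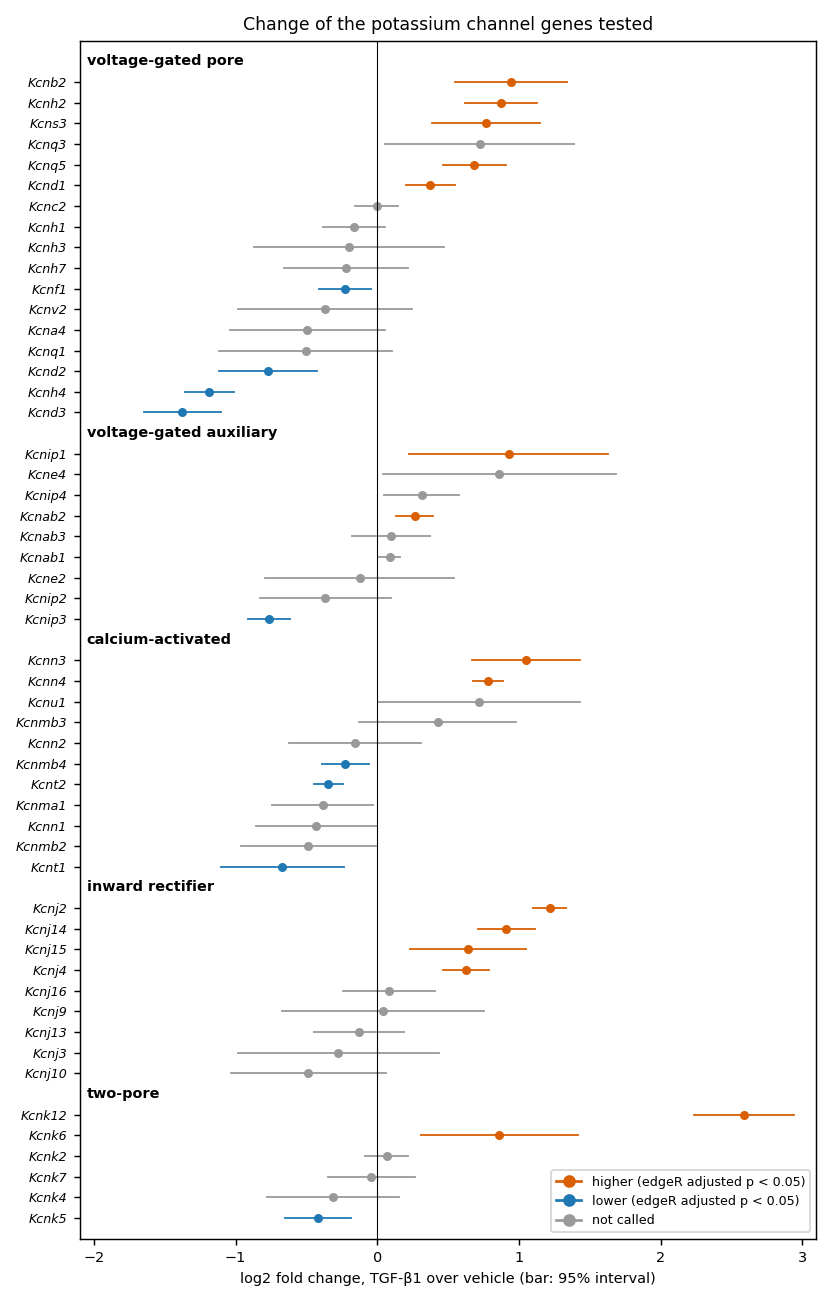
Log2 fold change of TGF-β1 over vehicle (horizontal axis) with its 95% interval for 52 of the 55 members tested, by subfamily. Orange marks the 15 genes called higher and blue the 9 called lower in edgeR's test, and the values range from -1.38 (*Kcnd3*) to 2.59 (*Kcnk12*).

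Inward rectifiers pass potassium more readily into the cell than out of it, and the strong rectifiers of the Kir2 branch hold the resting potential of vascular cells near the potassium equilibrium. Of the 14 inward rectifier genes, 9 were tested, 4 were higher, none was lower and 5 were not called. The share called was 44.4% of those tested, near the 41.3% of all genes tested. Of the 4 higher genes, 3 encode Kir2 subunits. *Kcnj2* (ENSMUSG00000041695, chr11:111066164-111076821), which encodes Kir2.1, had 10.6, 9.96, 9.996 and 9.51 CPM in the vehicle cultures and 21.9, 23.2, 23.3 and 24.8 CPM in the TGF-β1 cultures. Every treated culture was thus above every control culture, with a log2 fold change of 1.22 (standard error, SE, of 0.06, adjusted p = 5.81e-22). For *Kcnj14* (ENSMUSG00000058743, Kir2.4) the vehicle cultures gave 3.56, 3.42, 2.97 and 3.83 CPM and the TGF-β1 cultures 6.07, 6.25, 6.68 and 6.94 CPM, again without overlap. The log2 fold change was 0.91 (SE 0.10, adjusted p = 2.35e-10). *Kcnj4* (ENSMUSG00000044216, Kir2.3) was at 6.29, 6.78, 7.83 and 8.06 CPM with vehicle and at 12.1, 12.02, 10.2 and 10.5 CPM with TGF-β1, and the groups were apart. Its log2 fold change was 0.63 (SE 0.08, adjusted p = 1.03e-08). The remaining Kir2 gene of the rule, *Kcnj12* (Kir2.2), was at 0 to 5 counts per culture and was not tested. Added over these 4 genes, a grouping made after the values were seen, the level was 20.7 ± 0.521 CPM with vehicle and 41.1 ± 1.03 CPM with TGF-β1 (SD, n = 4 each).

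*Kcnj15* (ENSMUSG00000062609), which encodes Kir4.2, was near 1 CPM, with 0.846, 0.680, 1.05 and 1.13 CPM in the vehicle cultures and 1.83, 1.28, 1.20 and 1.47 CPM in the TGF-β1 cultures. The groups lay close together without overlapping (log2 fold change 0.64, SE 0.20, adjusted p = 0.00891), and without TGF-β1 replicate 5 the call was lost (adjusted p = 0.0637). Among the other inward rectifiers, *Kcnj10*, *Kcnj16* and *Kcnj13* were tested and not called. *Kcnj10* (Kir4.1) had a log2 fold change of -0.49 with an interval of -1.04 to 0.06, and *Kcnj16* (Kir5.1) one of 0.08 with an interval of -0.24 to 0.41. *Kcnj13* (Kir7.1) was at 2.24 ± 0.475 and 2.05 ± 0.355 CPM (SD, n = 4 each), but 49.1% of its exon length also lies in exons of *Gigyf2* on the opposite strand, and the strand setting of the counting is not given in the sources used here. The G-protein-gated subunits *Kcnj3* and *Kcnj9* were tested and not called, and *Kcnj5* and *Kcnj6* had at most 8 counts in any culture. *Kcnj11*, a pore subunit of ATP-sensitive channels, and *Kcnj1* had at most 4 counts.

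Two-pore channels carry background current that is open at rest, and the subfamily held the largest change of all members. Of its 14 genes, 6 were tested, 2 of them higher and 1 lower (50% called, against 41.3% of all genes tested). *Kcnk12* (ENSMUSG00000050138, chr17:87745801-87797994), which encodes THIK-2, a channel that is largely silent when expressed alone, had 0.347, 0.746, 0.589 and 0.715 CPM with vehicle and 3.62, 4.05, 3.32 and 3.47 CPM with TGF-β1. These are 16 to 34 counts in the vehicle cultures and 152 to 186 counts in the treated ones. Its level was thus 6.01-fold higher, with a log2 fold change of 2.59 (SE 0.18, adjusted p = 1.14e-16). Its closest relative *Kcnk13* (THIK-1) had 1 to 9 counts per culture and was not tested. *Kcnk5* (ENSMUSG00000023243), which encodes the alkali-activated channel TASK-2, went the other way, from 4.23, 4.10, 3.70 and 3.99 CPM with vehicle to 2.90, 2.74, 3.21 and 3.13 CPM with TGF-β1. The groups did not overlap (log2 fold change -0.42, SE 0.11, adjusted p = 0.00239). *Kcnk6* (TWIK-2) was higher, from 0.485 ± 0.148 to 0.883 ± 0.258 CPM (SD, n = 4 each, adjusted p = 0.00974), although the treated culture with the lowest level, at 0.502 CPM, lay below 2 of the vehicle cultures. The mechanosensitive channel *Kcnk2* (TREK-1), the two-pore gene with the highest level per length, was at 8.42 ± 0.485 CPM with vehicle and 8.82 ± 0.345 CPM with TGF-β1. Its log2 fold change of 0.07 had an interval of -0.08 to 0.22. *Kcnk4* and *Kcnk7* were not called either, and 12.2% of the exon length of *Kcnk2* and 13.1% of that of *Kcnk4* is shared with other genes. *Kcnk3* (TASK-1), *Kcnk9* (TASK-3), *Kcnk1* and *Kcnk10* had at most 8 counts in any culture, and none of the 8 two-pore genes left out of the test, *Kcnk15*, *Kcnk16* and *Kcnk18* included, exceeded 12.

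Calcium-activated channels couple a rise of intracellular calcium to hyperpolarization. Of the 12 genes in this group 11 were tested, of which 2 were higher and 3 lower. This was 45.5% called, against 41.3% of all genes tested. *Kcnn4* (ENSMUSG00000054342, chr7:24370263-24386690), the intermediate-conductance channel KCa3.1 found in proliferating mesenchymal cells, was at 12.5, 13.2, 13.7 and 13.3 CPM with vehicle and at 22.3, 22.6, 23.7 and 22.0 CPM with TGF-β1. The spread within a group was small beside the difference (log2 fold change 0.78, SE 0.05, adjusted p = 1.42e-16). *Kcnn3* (ENSMUSG00000000794), a small-conductance channel, was less abundant and moved the same way, with 1.17, 0.702, 0.926 and 0.888 CPM in the vehicle cultures and 1.42, 2.11, 2.03 and 2.09 CPM in the treated ones. Its groups did not overlap, and the log2 fold change was 1.05 (SE 0.19, adjusted p = 1.07e-05). The other small-conductance genes were not called, *Kcnn1* at a log2 fold change of -0.43 (interval -0.86 to -0.00) and *Kcnn2* at -0.16 (interval -0.62 to 0.31).

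The genes of the large-conductance channel gave no rise that passed the test. *Kcnma1*, which encodes the pore of the BK channel, a brake on contraction in smooth muscle, was at 1.64 ± 0.208 CPM with vehicle and 1.26 ± 0.183 CPM with TGF-β1 (SD, n = 4 each). Its log2 fold change of -0.38 was not called (interval -0.74 to -0.03, adjusted p = 0.0797), except without TGF-β1 replicate 8, where the adjusted p was 0.0492. *Kcnmb1*, the BK β1 subunit of smooth muscle, had 0 to 6 counts per culture and was not tested. *Kcnmb4*, the β4 subunit, was lower by a small margin, with 9.81, 9.54, 8.25 and 8.06 CPM in the vehicle cultures and 6.87, 7.51, 7.64 and 8.45 CPM in the treated ones, and the groups overlapped. Its log2 fold change of -0.23 (adjusted p = 0.0227) was not called with DESeq2 (adjusted p = 0.0584) nor without vehicle replicate 1 (0.123), vehicle replicate 2 (0.0874) or TGF-β1 replicate 5 (0.0923). Exons of the antisense genes *Kcnmb4os1* and *Kcnmb4os2* cover 31.5% of its exon length, and neither was called. *Kcnmb2*, *Kcnmb3* and *Kcnu1*, the sperm channel Slo3, were not called (adjusted p = 0.101, 0.228 and 0.103). The sodium-activated pair fell. *Kcnt2* (ENSMUSG00000052726, Slick) had 28.3, 28.9, 29.2 and 28.2 CPM with vehicle and 24.2, 23.9, 22.4 and 19.6 CPM with TGF-β1 (log2 fold change -0.35, SE 0.05, adjusted p = 3.12e-07). *Kcnt1* (ENSMUSG00000058740, Slack) had 0.955, 1.27, 1.07 and 1.19 CPM with vehicle and 0.720, 0.740, 0.764 and 0.596 CPM with TGF-β1 (log2 fold change -0.67, SE 0.22, adjusted p = 0.0104). In both genes all treated cultures were below all vehicle cultures.

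**Figure D3:**
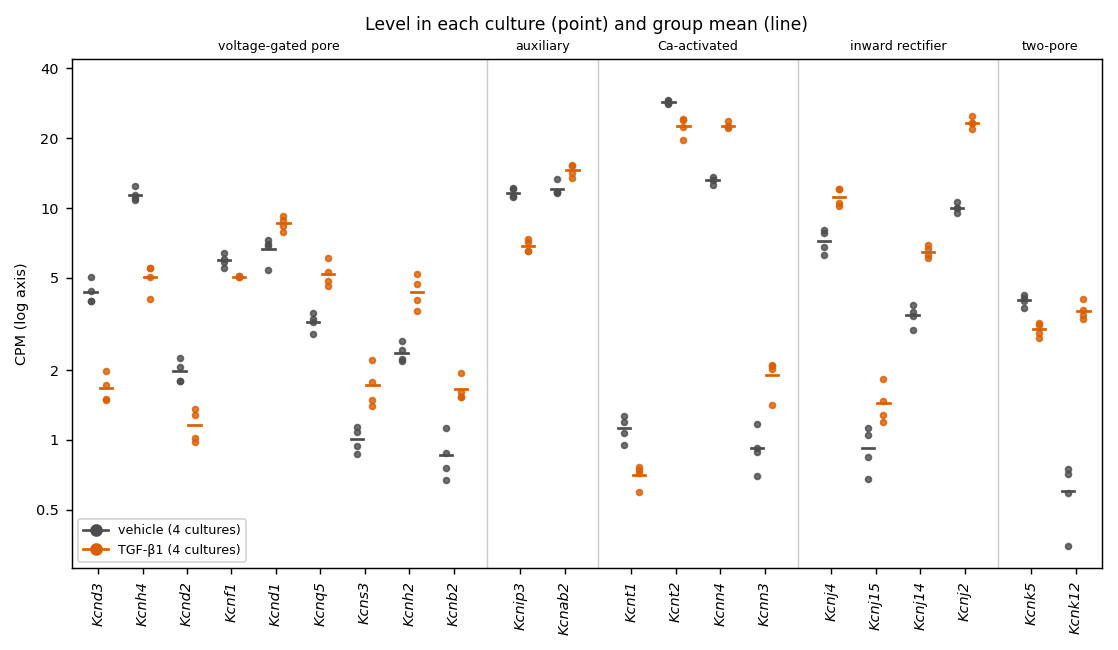
Level of the 21 members that were called, did not overlap between groups and averaged at least 0.5 CPM, in CPM on a log axis, with a point per culture and a line at each group mean (vehicle grey, TGF-β1 orange). The separation of the groups follows from the choice of these members. All 4 inward rectifiers shown were higher, as for *Kcnj2* at 21.9 to 24.8 against 9.51 to 10.6 CPM. The 5 inward rectifiers tested and not called are not shown. In the other subfamilies rises and falls stand side by side.

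Voltage-gated channels open on depolarization. Among the 40 pore genes 20 were tested, 5 of them higher and 4 lower (45% called, against 41.3% of all genes tested). The A-type channels of the Kv4 branch, which inactivate within milliseconds, moved in both directions. *Kcnd3* (ENSMUSG00000040896, Kv4.3) fell from 4.38, 3.97, 5.05 and 3.99 CPM with vehicle to 1.99, 1.503, 1.48 and 1.72 CPM with TGF-β1, the largest fall of the 55 members tested (log2 fold change -1.38, SE 0.13, adjusted p = 7.31e-12). *Kcnd2* (ENSMUSG00000060882, Kv4.2) fell from 2.26, 1.80, 2.06 and 1.80 CPM to 1.35, 1.02, 0.982 and 1.28 CPM (log2 fold change -0.77, SE 0.17, adjusted p = 0.000242). *Kcnd1* (ENSMUSG00000009731, Kv4.1) rose instead, from 6.86, 7.30, 5.39 and 6.98 CPM to 8.36, 8.84, 9.27 and 7.92 CPM (log2 fold change 0.38, SE 0.09, adjusted p = 0.000359). None of the 3 overlapped between groups. Added over the 3 genes, grouped after the values were seen, the level was 13.0 ± 0.428 CPM with vehicle and 11.4 ± 0.381 CPM with TGF-β1, and *Kcnd1* provided the largest part in both groups.

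The Kv4 partners, the calcium-binding KChIP proteins, were likewise divided. *Kcnip3* (ENSMUSG00000079056), whose product KChIP3 is also the transcriptional repressor DREAM, fell from 11.1, 12.1, 11.3 and 12.2 CPM with vehicle to 7.33, 6.51, 6.50 and 7.15 CPM with TGF-β1. No treated culture reached the lowest vehicle culture (log2 fold change -0.76, SE 0.07, adjusted p = 5.28e-12). *Kcnip1* was called higher at 10 to 32 counts per culture (log2 fold change 0.93, adjusted p = 0.0284) with overlapping groups, and lost the call with DESeq2 (0.0591) and without vehicle replicate 1 (0.0801), 2 (0.0789) or 3 (0.0819) or TGF-β1 replicate 6 (0.119) or 8 (0.0700). *Kcnip2* and *Kcnip4* were not called (adjusted p = 0.214 and 0.0516). For *Kcnip4* the log2 fold change was 0.31 (interval 0.05 to 0.58). Its edgeR adjusted p lay between 0.0176 and 0.204 with each culture left out.

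In the ether-a-go-go branch the gene with the highest level fell and that of the cardiac repolarizing channel rose. *Kcnh4* (ENSMUSG00000035355, chr11:100740376-100759942), which encodes Kv12.3, had 12.5, 11.01, 10.8 and 11.4 CPM with vehicle and 5.50, 5.53, 5.02 and 4.04 CPM with TGF-β1. This corresponds to a log2 fold change of -1.19 (SE 0.09, adjusted p = 8.94e-16). *Kcnh2* (ENSMUSG00000038319), the mouse form of hERG, had 2.19, 2.43, 2.23 and 2.66 CPM with vehicle and 3.60, 5.18, 3.99 and 4.68 CPM with TGF-β1 (log2 fold change 0.87, SE 0.13, adjusted p = 1.44e-07). Neither gene overlapped between groups. *Kcnh1*, *Kcnh3* and *Kcnh7* were not called, and *Kcnh5*, *Kcnh6* and *Kcnh8* were not tested, at no more than 24 counts in any culture.

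The delayed rectifiers and the silent subunits that join them gave 3 rises and 1 small fall. *Kcnb2* (ENSMUSG00000092083, Kv2.2) had 0.759, 0.877, 0.673 and 1.13 CPM with vehicle and 1.53, 1.94, 1.61 and 1.53 CPM with TGF-β1 (log2 fold change 0.94, SE 0.19, adjusted p = 8.51e-05). *Kcns3* (ENSMUSG00000043673), a subunit that conducts only together with Kv2 subunits, had 1.08, 0.943, 1.14 and 0.867 CPM with vehicle and 2.20, 1.79, 1.48 and 1.40 CPM with TGF-β1 (log2 fold change 0.77, SE 0.19, adjusted p = 0.000776). *Kcnq5* (ENSMUSG00000028033, Kv7.5), which carries the slow M-type current of vascular smooth muscle, had 3.52, 2.87, 3.33 and 3.23 CPM with vehicle and 5.28, 6.10, 4.84 and 4.60 CPM with TGF-β1 (log2 fold change 0.68, SE 0.11, adjusted p = 1.32e-06). All treated cultures of these genes were above all vehicle cultures. *Kcnf1* (ENSMUSG00000051726), another silent subunit, was at 5.86, 6.38, 5.51 and 6.00 CPM with vehicle and 5.04, 5.03, 5.11 and 5.09 CPM with TGF-β1. Its groups did not overlap, but the change was near the threshold (log2 fold change -0.23, SE 0.09, adjusted p = 0.0405). It was not called with DESeq2 (0.0575), with all genes of at least 1 count (0.0743), or without any 1 of vehicle replicates 1, 2 and 4 and TGF-β1 replicates 5 to 8 (0.0618 to 0.130).

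The more abundant delayed rectifier *Kcnc2* (Kv3.2) was not called. It was at 9.14 ± 0.398 CPM with vehicle and 9.11 ± 0.841 CPM with TGF-β1 (SD, n = 4 each, log2 fold change -0.00, interval -0.16 to 0.15). Kv1 pore genes were nearly silent. *Kcna4* was the only one of the 8 *Kcna* genes tested, at 19 to 39 counts per culture (log2 fold change -0.49, interval -1.04 to 0.05), and *Kcna5* (Kv1.5), common in vascular smooth muscle, had no count in any culture, which allows up to 3 counts in each. The β subunits of Kv1 were present all the same. *Kcnab1* was at 37.7 ± 0.888 CPM with vehicle and 40.1 ± 0.693 CPM with TGF-β1 (SD, n = 4 each). The log2 fold change was 0.09, with an interval of 0.01 to 0.16. Its groups did not overlap, and it missed the threshold with edgeR (adjusted p = 0.0574) but not with DESeq2 (0.0436). *Kcnab2* (ENSMUSG00000028931) rose, from 13.4, 11.6, 11.7 and 11.7 CPM with vehicle to 14.2, 15.2, 15.3 and 13.4 CPM with TGF-β1 (log2 fold change 0.27, SE 0.06, adjusted p = 0.000689). The highest vehicle culture and the lowest treated one were almost equal, although they did not cross. *Kcnab3* was not called, and neither were *Kcne2* and *Kcne4* among the KCNE subunits, of which *Kcne1*, *Kcne1l* and *Kcne3* were not tested. For the 12 auxiliary genes as a group, 9 were tested, 2 were higher and 1 was lower (33.3% called, against 41.3% of all genes tested). The number higher was 1 without vehicle replicate 3 and 4 with DESeq2's size factors in edgeR.

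Further voltage-gated pore genes, among them *Kcnq1*, *Kcnq3* and *Kcnv2*, were not called, while *Kcnc1*, *Kcnc4*, *Kcng1* to *Kcng4*, *Kcns1*, *Kcns2* and *Kcnv1* were too low to test, as were *Kcna1*, *Kcna2*, *Kcna3*, *Kcna6*, *Kcna7* and *Kcna10*. Among the 31 members tested and not called, 18 were below 1 CPM. Their log2 fold changes lay between -0.51 and 0.86 and the median 95% interval extended 0.46 to either side. The whole interval lay within 0.5 of 0 for 9 of them. For 8 it reached past 1 in size, so that a change of this size was not excluded in these 8 genes.

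Summed by subfamily, the level differed most in the inward rectifiers. Their 14 genes added up to 28.4, 26.3, 27.1 and 28.5 CPM in the vehicle cultures and to 48.2, 47.5, 46.9 and 49.3 CPM in the treated ones, which is 1.74 times as much on average. The largest part of this rise was that of *Kcnj2* (group means of 10.02 and 23.3 CPM). The two-pore genes added up to 17.2 ± 0.612 and 19.7 ± 0.739 CPM (ratio 1.147), and the voltage-gated pore genes to 63.0 ± 2.26 and 58.9 ± 0.856 CPM (ratio 0.936, SD, n = 4 each). Neither sum overlapped between the groups. In the two-pore sum *Kcnk12* alone went from 0.599 to 3.61 CPM, a larger rise than that of the sum. The auxiliary and calcium-activated sums overlapped, at ratios of 1.01 and 1.03. Over all 92 members the sum was 235 ± 3.39 CPM with vehicle and 257 ± 2.28 CPM with TGF-β1 (ratio 1.09). These sums are descriptions without a test.

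**Figure D4:**
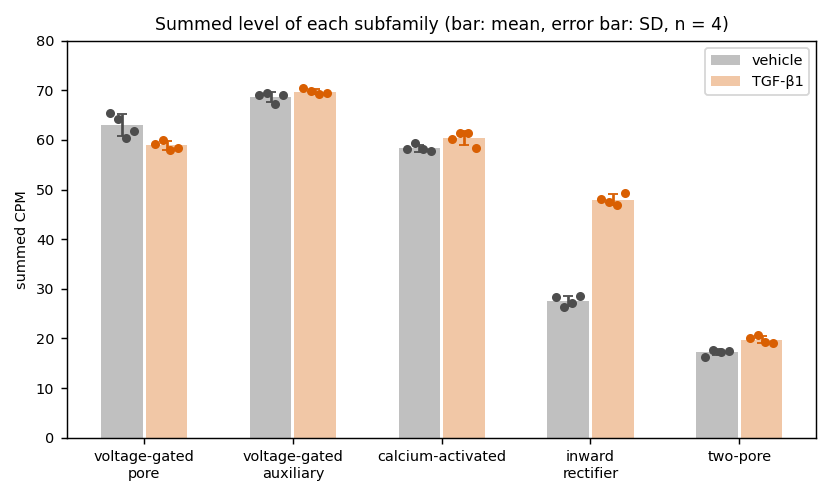
Summed CPM of the members of each subfamily, with a point per culture, bars for the mean and error bars for the SD (n = 4 per group, vehicle grey, TGF-β1 orange). The inward rectifiers stand at 26.3 to 28.5 CPM with vehicle and 46.9 to 49.3 CPM with TGF-β1, and the other 4 subfamilies differ by ratios of 0.936 to 1.147.

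The DNA upstream of the genes that rose was examined for 2 short motifs tied to TGF-β transcription factors, the SMAD-binding core CAGAC and the AP-1 site TGANTCA, on both strands in the 250 bases before each RefSeq start on GRCm38.p6. The table of RefSeq starts matched 67 of the 92 members and 17 of the 21 that were called without overlap at 0.5 CPM or more. CAGAC lay in 7 of 14 windows of the higher and 5 of 9 windows of the lower genes among these 21, against 42.2% of all 32851 windows. TGANTCA lay in 0 and 1 of them, against 6.75% of all windows. The windows of *Kcnj2* (chr11:111065914-111066163, plus strand), *Kcnn4* (chr7:24370013-24370262, plus strand) and *Kcnk12* (chr17:87797995-87798244, minus strand) are shown 5′ to 3′ because these genes had the smallest adjusted p-values among the rises, with CAGAC or its reverse complement in capitals.
Kcnj2 upstream: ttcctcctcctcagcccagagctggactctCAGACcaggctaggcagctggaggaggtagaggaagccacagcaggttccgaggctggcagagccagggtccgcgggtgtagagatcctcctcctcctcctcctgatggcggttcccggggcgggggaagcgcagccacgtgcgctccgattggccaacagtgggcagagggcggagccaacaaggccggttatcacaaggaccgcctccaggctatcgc
Kcnn4 upstream: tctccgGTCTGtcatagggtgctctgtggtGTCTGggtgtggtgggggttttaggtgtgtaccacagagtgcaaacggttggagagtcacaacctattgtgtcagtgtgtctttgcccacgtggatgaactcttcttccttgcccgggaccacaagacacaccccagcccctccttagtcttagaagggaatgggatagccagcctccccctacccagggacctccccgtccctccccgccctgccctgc
Kcnk12 upstream: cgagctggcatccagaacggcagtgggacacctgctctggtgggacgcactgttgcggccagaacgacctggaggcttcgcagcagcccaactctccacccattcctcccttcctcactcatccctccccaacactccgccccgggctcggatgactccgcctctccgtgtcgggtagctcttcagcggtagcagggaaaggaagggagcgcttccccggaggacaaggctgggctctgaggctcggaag
The motif occurs 1 time in the window of *Kcnj2*, 2 times in that of *Kcnn4* and in neither orientation in that of *Kcnk12*. A match describes the letters only and was not tested for binding.

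Proteins that work with these channels but bear other symbols were read from a list of 20, of which 16 were tested. Of these, 2 were higher and 4 lower, where 20.9% of all genes tested were higher and 20.3% lower. *Kcnrg*, whose product interferes with the assembly of voltage-gated channels, fell from 6.60 ± 0.889 to 3.57 ± 0.498 CPM (SD, n = 4 each, log2 fold change -0.89, adjusted p = 3.73e-09). *Lrrc38*, a γ subunit of the BK channel, fell from 1.78 ± 0.176 to 1.18 ± 0.277 CPM (adjusted p = 0.00685). The potassium-permeable TRIC channels of the endoplasmic reticulum moved apart, *Tmem38b* from 20.1 ± 1.06 to 32.2 ± 0.470 CPM (log2 fold change 0.68, adjusted p = 9.38e-17) and *Tmem38a* from 20.1 ± 1.75 to 16.3 ± 0.369 CPM (log2 fold change -0.30, adjusted p = 2.68e-05). *Calm2*, a calmodulin gene whose protein serves as the calcium sensor of small- and intermediate-conductance channels, rose by a log2 fold change of 0.15 (adjusted p = 7.31e-07), and *Calm3* was not called. The lysosomal channel *Tmem175* had an adjusted p of 0.0215 at a log2 fold change of -0.17, and was not called with DESeq2 (0.0635). *Abcc9*, the sulfonylurea receptor of vascular ATP-sensitive channels, had 0 to 9 counts per culture, *Abcc8* was not called, and neither were the hyperpolarization-activated *Hcn2*, *Hcn3* and *Hcn4*.

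Of the 6 genes for cotransporters that carry potassium with chloride, all were tested, 2 were higher and 2 lower. Over all genes tested 41.3% were called in either direction. *Slc12a2* (NKCC1), which loads chloride into the cell, fell from 95.3 ± 2.72 to 53.6 ± 1.75 CPM (SD, n = 4 each, log2 fold change -0.83, adjusted p = 1.71e-25), and *Slc12a7* (KCC4), which extrudes it, from 148 ± 2.56 to 109 ± 2.24 CPM (log2 fold change -0.44, adjusted p = 1.06e-18). *Slc12a4* (KCC1) rose from 87.3 ± 2.58 to 97.9 ± 0.582 CPM (adjusted p = 3.89e-06) and *Slc12a1* (NKCC2) from 0.621 ± 0.209 to 1.25 ± 0.278 CPM (adjusted p = 0.000559). In each of these 4 genes the groups did not overlap, as in 37.9% of all genes tested. *Slc12a5* was not called.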

How the data were processed

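The deposited values are counts per Ensembl gene for each culture. According to the methods, the authors aligned to mm10 with two-pass STAR (2.7.5c), removed duplicates with samtools (1.15) and counted with featureCounts (2.0.3), without normalization. The kit was stranded, but strand setting, annotation release and handling of mates are not given in the sources used here. Symbols, types, positions and exon lengths were taken from GENCODE M21 (GRCm38), which matched 54495 of 54532 identifiers. The counts were tested with edgeR 4.0.16 (R 4.3.3): filterByExpr, TMM, robust quasi-likelihood test, Benjamini-Hochberg adjustment over 22544 genes. The standard error is the log2 fold change divided by the square root of F, and the 95% interval uses the test's degrees of freedom. The code was tested on simulated data. Members given per culture were called, did not overlap between groups and averaged at least 0.5 CPM. The members and all lists were chosen with earlier results of these data known. Even numbers made up 68.5% to 70.2% of the counts from 1 to 20, so if both mates were counted the fragments are fewer. Counts of culture pairs within a group differed by a chi-square of 2.25 to 3.93 per degree of freedom, and 1.14 to 2.11 with counts halved. This comparison was used only to check for a library deposited more than once. How much of the spread between cultures is biological was not tested. That the cultures are separate rests on the labels. Alternatives were DESeq2 1.42.0 without a filter before the model, other scalings and filters, halved counts and each culture left out. Sequences are from GENCODE M21 (coding) and RefSeq (upstream). A few genes and sequences are not reported here.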

Additional observations from a re-analysis of the deposited data

Results flagged for a closer look

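Across 60 groups of 4 cultures (the 21 members given per culture, 8 summed levels and the library totals), 3 held a single culture that stood apart from the rest; by chance about 1 group in 20, or 3, would. *Kcnab2* was at 13.4 CPM in vehicle replicate 1 against 11.7 CPM in the nearest culture. For *Kcnn3*, TGF-β1 replicate 5 gave 1.42 CPM and the next culture 2.03 CPM. The summed level of the calcium-activated group was 59.4 CPM in vehicle replicate 2 against 58.1 CPM.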

How the results depend on the processing

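No paired analysis was possible because the labels give the vehicle cultures numbers 1 to 4 and the TGF-β1 cultures numbers 5 to 8. Members called higher numbered 15 to 17 and members called lower 7 to 9 over the changes of tool, scaling, filter and counting unit, and 14 to 17 and 7 to 10 with each culture left out. The number of higher auxiliary genes was 4 with DESeq2's size factors in edgeR, and 1 to 3 with each culture left out. Of 285 such counts under alternatives, 283 stayed within 1.5 times the value reported. Of the 24 called members, 20 kept the call in all 15 alternatives, and the exceptions were *Kcnf1*, *Kcnip1*, *Kcnj15* and *Kcnmb4*. No called member changed direction. The depth limits the 37 members with too few counts to test.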

Other observations

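Of the 5 non-coding genes whose symbols also begin with a channel gene's name, *Kcnq1ot1*, the imprinted antisense transcript of the *Kcnq1* locus, was far above any member of the family. It went from 568 ± 43.0 CPM with vehicle to 470 ± 9.13 CPM with TGF-β1 (SD, n = 4 each, log2 fold change -0.27, edgeR adjusted p = 0.00299), and the groups did not overlap. *Kcnq1* itself had 9 to 41 counts per culture and was not called, with 2.96% of its exon length shared with the antisense gene. This gene was chosen after its values were seen.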
